A study of Oryza sativa with 8 samples.

Results

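OsMADS14, OsMADS15, OsMADS18 and OsMADS34 are rice MADS-box transcription factor genes of inflorescence meristem identity. They were taken by name and by 1 fixed probe set each, and they are 4 of the 17905 genes that the platform annotation paired with a probe set of its own. The choice did not use measured values in its wording, but it was made with earlier results of these data known. The series compared Hejiang19 (HJ19), a rice cultivar, with transgenic OX-Ghd7HJ19 plants, which overexpress the flowering time repressor Ghd7 in Hejiang19. Young leaves of 35-day-old plants and developing panicles of 0.1 cm were sampled from both genotypes, which gave the 4 groups of wild-type leaf, overexpressor leaf, wild-type panicle and overexpressor panicle. All groups came from the same field station and were collected 3 hours after dawn. Each group held 2 Affymetrix rice arrays that the titles call biological replicates, so 8 arrays were compared. The promoter of the transgene, the number of transgenic lines and the number of plants per sample are not given in the sources used here. The plants were sampled at 1 age for leaves and at 1 length for panicles, so the panicles of both genotypes were matched by size and not by date. A free-text description carried by every sample, panicles included, names a flag leaf at heading, whereas the titles, source names and tissue labels give young leaves or panicles. The groups follow the titles.

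In rice, as in other plants, day length is read in the leaf, where florigen genes such as Hd3a are switched on, and florigen protein travels to the shoot apex. There it joins GF14 proteins and the transcription factor FD and switches on genes of the APETALA1 (AP1) type, whose products turn the vegetative meristem into an inflorescence meristem. OsMADS14, OsMADS15 and OsMADS18 belong to this AP1-like group, together with OsMADS20. OsMADS34, also called PAP2, belongs to the SEPALLATA-like group and acts with the AP1-like genes at that step. Ghd7 is known to delay flowering by lowering the expression of florigen genes under long days.

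The arrays were checked before the genes were compared. Pearson's r between the arrays of a group, taken over probe sets, was at least 0.991. The 6 measured green leaf marker genes, such as OsrbcS, lay at or above percentile 99.8 of the probe sets in leaves of both genotypes. The 5 measured shoot apex marker genes, OSH1, OSH6, LAX1, RFL and FZP, had mean log2 values of 2.62 to 4.39 in wild-type leaves and 2.57 to 4.70 in overexpressor leaves, against 9.11 to 13.20 in wild-type panicles. Summed on the linear scale, those apex markers were 65.2 for leaves of wild type, 71.0 for leaves of the overexpressor and 24320 for panicles of wild type, and the tissue labels and the markers went together. All 5 lay below the array median in wild-type leaves and 4 of the 5 in overexpressor leaves. No probe set was paired with Ghd7, which is not analysed here, and the genotype labels could not be checked by it.

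A limited check came from 64 reporter control probe sets, which the array carries for foreign marker genes used in transformation. Of these, 2 were far higher in overexpressor leaves than in wild-type leaves, and the other 62 differed by at most 0.79 on the log2 scale. The first, called reporter A here, read 5.78 and 4.35 in wild-type leaves and 12.18 and 14.26 in overexpressor leaves. The second, reporter B, read 3.56 and 3.53 in wild-type leaves and 11.26 and 11.45 in overexpressor leaves. In panicles neither was raised: reporter A read 4.41 and 4.57 in wild type and 4.50 and 4.51 in the overexpressor, and reporter B read 3.64 and 3.59 in wild type and 3.87 and 3.91 in the overexpressor. The files do not name the foreign genes behind these probe sets, and whether the difference between tissues reflects the plants, the transgene or the labels was not tested. The panicle arrays are therefore called labelled overexpressor panicles below, and every panicle comparison of genotypes rests on that label.

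**Figure D1:**
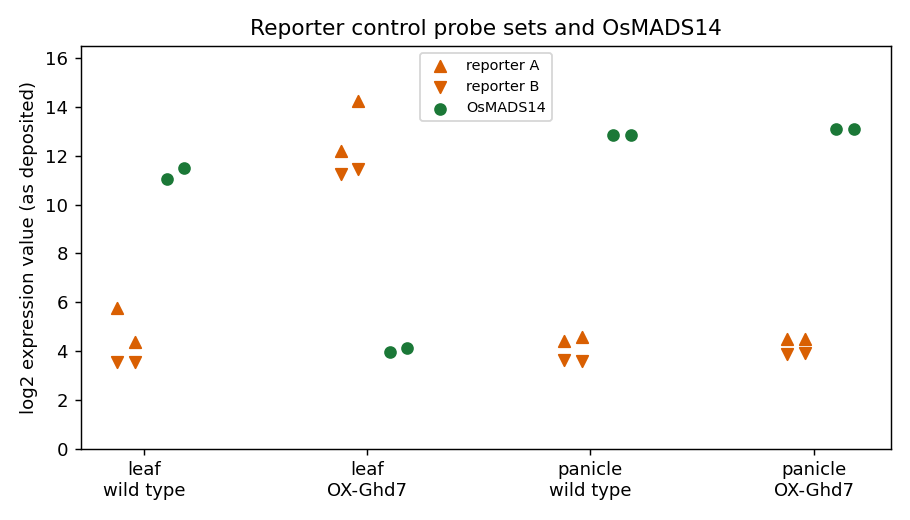
The log2 expression values of reporter control probe sets A and B (triangles) and of OsMADS14 (circles) are plotted for each of the 8 arrays, by tissue and genotype. Both reporters lie at 11.26 to 14.26 in overexpressor leaves and below 6 in all other groups, while OsMADS14 is low in overexpressor leaves alone.

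OsMADS14, an AP1-like gene that promotes the floral transition downstream of florigen, was strongly expressed in wild-type leaves and below the array median in overexpressor leaves. Its log2 expression values, as deposited by the authors after RMA, were 11.04 and 11.52 in wild-type leaves and 3.95 and 4.11 in overexpressor leaves. Both overexpressor values lay below both wild-type values, as they did for 18.3% of all probe sets in leaves. The wild-type values stood at percentiles 98.0 and 98.7 of all probe sets while those of the overexpressor stood at 39.4 and 42.3. The change was -7.25 ± 0.16 (log2 ± SE, n = 2 arrays per group), a fall of at least 152-fold (limma, adjusted p = 1.26e-07), where the bound is used because the overexpressor value may be background. As measured it was the largest fall of all 57194 probe sets tested in leaves. In whole tissue, fewer expressing cells and less RNA per cell cannot be told apart.

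In panicles OsMADS14 stayed at a high level in both genotypes. The values were 12.84 and 12.85 in wild-type panicles and 13.10 and 13.11 in labelled overexpressor panicles. Both labelled overexpressor values lay above both wild-type values, as they did for 27.3% of all probe sets in this comparison. The change of 0.26, with a 95% interval of -0.10 to 0.62, did not pass the test (limma, adjusted p = 0.509). The spread behind this interval was pooled over all 8 arrays. Replicate SDs were 0.007 in both panicle groups, 0.34 in wild-type leaves and 0.12 in overexpressor leaves. With the panicle arrays alone the change did not pass either (limma, adjusted p = 0.198). The effect in panicles minus that in leaves was 7.51 ± 0.23, the largest positive value of all probe sets (limma, adjusted p = 6.08e-06).

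Each of the other 3 probe sets paired with OsMADS14 gave the same pattern, although the sizes differed. In leaves the one with the suffix a changed by -6.19 ± 0.17, the one with the suffix x by -4.84 ± 0.19 and the one from another sequence cluster by -3.40 ± 0.29, and all passed (limma, adjusted p = 5.78e-07 to 4.56e-04). Their overexpressor means, 2.93, 4.44 and 2.32, lay below the array median and may be background. The point estimates are falls of 73.1-fold, 28.6-fold and 10.6-fold, and the true falls may be larger. As measured they ranked 5, 8 and 20 among the falls of all probe sets, and such ranks are not exact where the lower value may be background. The suffix x marks probes that can match other transcripts as well, the suffix s marks probes shared by several genes, and the suffix a marks probes shared by transcripts of 1 gene. The smallest fall came from the probe set of the other cluster, whose wild-type leaf values, 5.16 and 6.27, were the furthest apart of the 4 probe sets. The lower of these lay within the range of the reporter controls of wild-type leaves, which reached 6.04. In panicles the changes were 0.46, 0.16 and 0.58 in the same order, and none passed (limma, adjusted p = 0.234 to 0.793).

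OsMADS18, another AP1-like gene that promotes flowering and is known to be expressed in vegetative organs too, also fell in leaves but kept a high level there. Its log2 values were 11.35 and 11.53 in wild-type leaves and 9.28 and 9.58 in overexpressor leaves. The overexpressor values were both lower, as for 18.3% of all probe sets, yet they still stood at percentiles 93.8 and 94.9 of the array. The change was -2.02 ± 0.14, a fall of 4.04-fold (limma, adjusted p = 1.17e-04). Its size depended on the scaling, as it was -1.61 with all arrays quantile normalized together. All 4 deposited values were above those of the reporter controls in wild-type leaves, whose highest value was 6.04, so this change was measured on both sides.

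In panicles OsMADS18 read 13.18 and 13.19 in wild type and 13.28 and 13.40 in the labelled overexpressor. The values of the labelled overexpressor were both higher, as for 27.3% of all probe sets. The change of 0.15, with a 95% interval of -0.16 to 0.46, did not pass (limma, adjusted p = 0.699). The difference between the effects in panicles and leaves was 2.17 ± 0.19 (limma, adjusted p = 9.29e-04). OsMADS18 had a single probe set, so no second reading of it was available.

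OsMADS15, the third AP1-like gene and a known target of the florigen complex at the apex, was a panicle transcript on these arrays. In leaves it read 4.29 and 4.61 in wild type and 4.09 and 4.20 in the overexpressor. Both overexpressor values were below both wild-type values, as for 18.3% of all probe sets, but the groups lay within the range of the reporter controls of wild-type leaves, which ran from 1.57 to 6.04. The change of -0.30, with a 95% interval from -0.60 to just above 0, did not pass (limma, adjusted p = 0.297), and a fall of a dim transcript could have gone unseen.

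In panicles OsMADS15 read 13.46 and 13.43 in wild type and 13.47 and 13.49 in the labelled overexpressor, at percentiles 99.2 to 99.3. The change was 0.03 with a 95% interval of -0.27 to 0.34 (limma, adjusted p = 0.959), which holds any panicle change within 0.83-fold to 1.26-fold at this precision. The chosen probe set carries the suffix x, but the other 3 probe sets of the gene read alike in panicles, with changes of 0.02 for the one with the suffix a, 0.02 for the one with the suffix s and 0.09 for one from another cluster. In leaves the values were -0.48, -0.22 and 0.13 in that order, and none passed (limma, adjusted p = 0.152 to 0.801).

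OsMADS34, the SEPALLATA-like partner that acts with the AP1-like genes and limits branching of the panicle, was also high in panicles and dim in leaves. Its leaf values were 3.22 and 3.94 in wild type and 2.44 and 2.23 in the overexpressor. Both overexpressor values were below both wild-type values, as for 18.3% of all probe sets, and the wild-type replicates were the least alike of the 4 genes in leaves. The change was -1.25 ± 0.21 (limma, adjusted p = 0.0108), but all 4 values lay within the range of the reporter controls of wild-type leaves, so its size is uncertain. It did not pass without overexpressor leaf replicate 1 (limma, adjusted p = 0.0521) or 2 (limma, adjusted p = 0.102), or with the 4 leaf arrays alone (limma, adjusted p = 0.132).

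In panicles OsMADS34 read 11.73 and 11.63 in wild type and 11.80 and 11.70 in the labelled overexpressor. These values overlapped between the genotypes, and the change of 0.07 had a 95% interval of -0.40 to 0.54 (limma, adjusted p = 0.947). The difference between the effects in panicles and leaves was 1.31 ± 0.29 (limma, adjusted p = 0.0441), which did not pass without any 1 of the 2 overexpressor leaf arrays or of the 4 panicle arrays (limma, adjusted p = 0.0983 to 0.175).

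**Figure D2:**
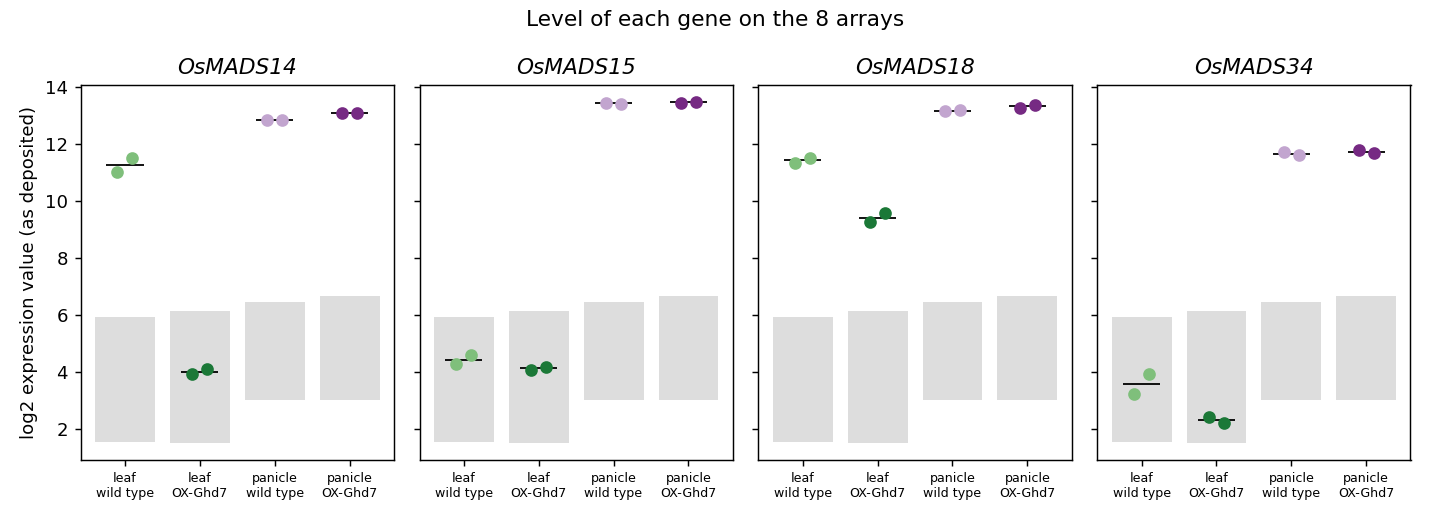
The log2 expression value of the chosen probe set of each gene is plotted for the 8 arrays, with a line at each group mean. Grey bands give the range of the reporter control probe sets in that group without the 2 highest on each array, and OsMADS14 enters that band only in overexpressor leaves, whereas OsMADS15 and OsMADS34 lie within it in leaves of both genotypes.

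Across the 4 genes, 3 fell in leaves and none rose, with a median change of -1.63 against 0.03 over all probe sets. Of all probe sets tested, 3.05% passed downwards and 1.37% upwards in leaves. In panicles none of the 4 genes passed in either direction, with a median of 0.11 against 0.02 over all probe sets, where 1.84% of all probe sets passed downwards and 1.05% upwards. By limma no chosen probe set had an unadjusted p under 0.05 in panicles either: the lowest of the 4 was 0.135, for OsMADS14. The OsMADS14 probe set with the suffix a did, at a change of 0.46 with a 95% interval of 0.07 to 0.85 (limma, unadjusted p = 0.0246, adjusted p = 0.234). For the difference between the effects, 3 of the 4 passed as higher in panicles, where 2.1% of all probe sets did, and OsMADS15 at 0.34 did not (limma, adjusted p = 0.421). The leaf and panicle estimates come from different arrays, but their SEs, intervals and p-values share a spread pooled over all 8 arrays. The difference between the effects shares all 8 arrays with them and is no independent evidence.

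**Figure D3:**
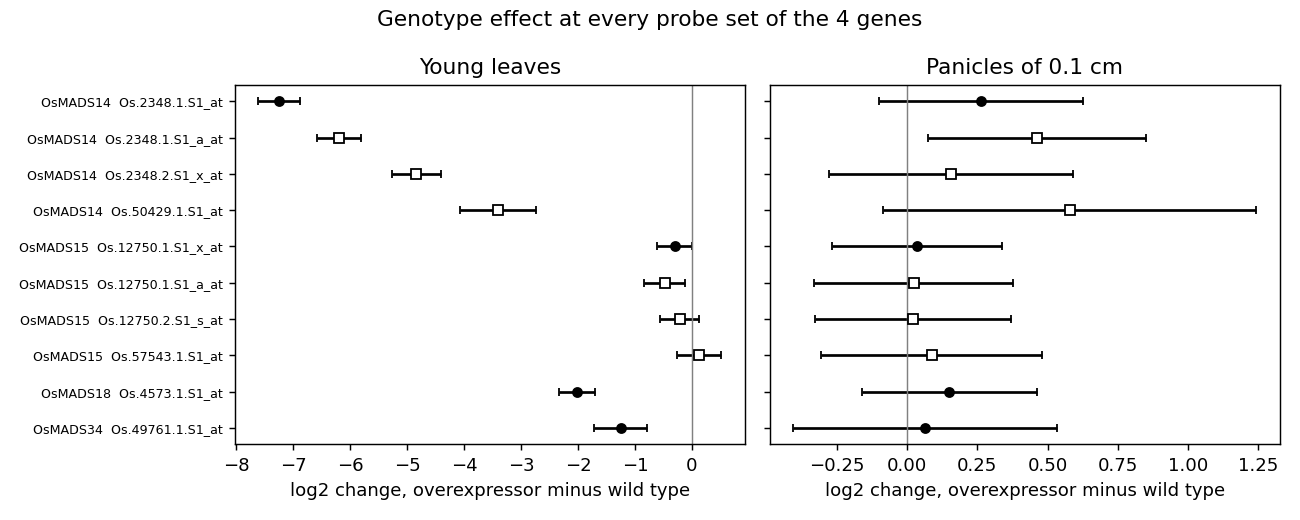
The log2 change from wild type to overexpressor is plotted for all 10 probe sets of the 4 genes, in leaves on the left and panicles on the right, with 95% intervals from limma and different scales on the horizontal axes. Filled circles are the chosen probe sets and open squares the others, and the 4 OsMADS14 probe sets span -3.40 to -7.25 in leaves and 0.16 to 0.58 in panicles.

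Levels in panicles and leaves could be set side by side only with a limit. As deposited, the medians of the leaf arrays ran from 4.49 to 4.53 and those of the panicle arrays from 6.13 to 6.15, so the tissues did not share a distribution. All arrays were therefore quantile normalized together for this comparison, and a level is given on that scale in the next sentences. Both panicle groups and wild-type leaves lay close together for OsMADS14: labelled overexpressor panicles read 12.31 and 12.35, wild-type leaves 11.89 and 12.30, and wild-type panicles 11.94 and 11.98. Overexpressor leaves stood alone at 4.67 and 4.83. The ranges of wild-type leaves and wild-type panicles overlapped, and the difference of -0.13 between them did not pass (limma, adjusted p = 0.448). The direction of that difference varied with the probe set and scaling: it was 1.57 on the deposited scale, where the median over all probe sets was 1.58, -1.17 at the probe set with the suffix a and 1.59 at that of the other cluster.

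OsMADS18 had the same order apart from a higher level in wild-type panicles than in wild-type leaves. Its values were 12.57 and 12.74 in labelled overexpressor panicles, 12.42 and 12.48 in wild-type panicles, 12.15 and 12.31 in wild-type leaves, and 10.49 and 10.75 in overexpressor leaves. The wild-type panicle and wild-type leaf means differed by 0.22, which did not pass (limma, adjusted p = 0.163). On the deposited scale that difference was 1.75.

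OsMADS15 and OsMADS34 were both far higher in panicles than in leaves. OsMADS15 was 7.54 ± 0.14 higher in wild-type panicles than in wild-type leaves (limma, adjusted p = 5.62e-10), and OsMADS34 was 6.13 ± 0.22 higher (limma, adjusted p = 1.52e-08). The point estimates are 186-fold and 69.8-fold, and the true ratios may be larger since the leaf values may be background. At its other probe sets OsMADS15 was higher by 9.79 (suffix a), 5.44 (suffix s) and 3.35 (another cluster). All passed (limma, adjusted p = 3.47e-10 to 1.21e-07), so the size depended on the probe set while the direction did not. Of all probe sets, 36% passed as higher in wild-type panicles and 41% as lower, so passing this comparison sets no gene apart. On the deposited scale 84.1% passed as higher and 7.87% as lower. For OsMADS15 the panicle groups read 12.80 and 12.82 in wild type and 12.83 and 12.88 in the labelled overexpressor. On the deposited scale too, both labelled overexpressor values lay above both wild-type values, as they did for 27.3% of all probe sets. The change between these groups, given above on the deposited scale, did not pass. For OsMADS34 the panicle groups overlapped, at 10.38 and 10.51 in wild type and 10.50 and 10.61 in the labelled overexpressor.

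Over the 8 arrays the quantile normalized values of OsMADS14 and OsMADS18 correlated at r of 0.983 and those of OsMADS15 and OsMADS34 at r of 0.995, while the other pairs of these genes had r of 0.612 to 0.783. Arrays of a group share their sample type, so these values describe the profiles of 4 groups. Among 2239 probe sets of other named genes whose group means spanned at least 1 on the log2 scale, the profile most like that of OsMADS14 was PRIN2 (r of 0.992 over 8 arrays). It was followed by wsl6 at 0.985, OsTDL1A at 0.980, OsMADS1 at 0.974 and OsPP2C75 at 0.968. OsTDL1A encodes a small secreted protein of anther development, OsMADS1 is a SEPALLATA-like gene and OsPP2C75 is a protein phosphatase of the PP2C family. Only 6 probe sets had r over 0.95 with OsMADS14.

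The same names stood near OsMADS18: wsl6 at r of 0.991, OEP21 and PRIN2 at 0.984, OsTDL1A at 0.970 and OsUGE-4 at 0.963, with 14 probe sets over 0.95. PRIN2 changed by -3.50 in leaves and 0.11 in panicles, and wsl6 by -1.68 and 0.07. The profiles of the other pair were common ones. 993 of the 2239 probe sets had r over 0.95 with OsMADS15 and 958 with OsMADS34, since any gene high in panicles and low in leaves has such a profile. The nearest were OsHox12, a homeobox gene, PNP2, OsTDL1B, PRMT5 and OsXAT2 for OsMADS15, at r of 0.9995 to 0.9998. For OsMADS34 they were OST48, CYCA3-2, TUB2, OsTIP4;1 and OsLpa1, at r of 0.9990 to 0.9994.

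Among 31 measured genes with an OsMADS name, OsMADS14, OsMADS18 and OsMADS34 made up 3 of the 4 that fell in leaves. The other was OsMADS1, whose change was -6.26 in leaves (limma, adjusted p = 1.5e-05), from 10.04 in wild type to 3.78. 3 of the 31 rose in leaves: OsMADS50 and OsMADS47, close to the threshold, and OsMADS57. In panicles the split was different, as 10 of the 31 fell and 1, OsMADS50, rose, while the 4 genes described here had values of 0.03 to 0.26. Among those that fell in panicles were OsMADS58 at -3.50 and OsMADS7 at -3.22. Over all probe sets 3.05% fell and 1.37% rose in leaves, and 1.84% fell and 1.05% rose in panicles.

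**Figure D4:**
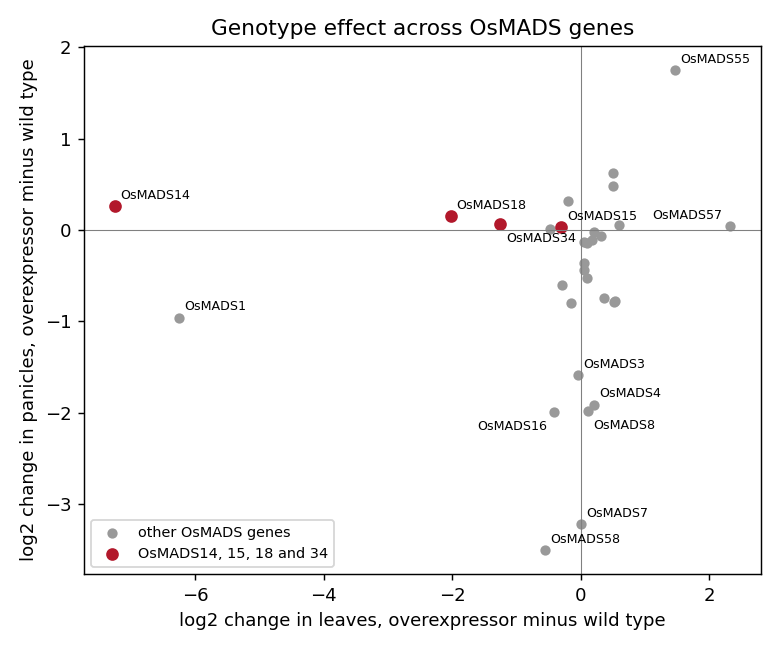
Each point is 1 of 31 OsMADS genes, with the log2 change from wild type to overexpressor in leaves on the horizontal axis and in panicles on the vertical axis. OsMADS14, OsMADS18 and OsMADS34 lie to the left along the zero line of the panicle axis, while OsMADS58 and OsMADS7 lie low on the panicle axis near the zero of the leaf axis.

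The remaining AP1-like gene, OsMADS20, was dim in all groups and did not pass in leaves at -0.21 or in panicles at 0.32 (limma, adjusted p = 0.769 and 0.642). Of 7 measured genes of florigen and its complex, 1 fell in leaves and none rose, with a median of -0.19 against 0.03 over all probe sets. Of all probe sets 3.05% fell and 1.37% rose in leaves. The gene that fell was Hd3a, the florigen gene upstream of these MADS genes, at -6.75 in leaves and 0.14 in panicles. Its wild-type leaf level was 10.59, and it read 4.10 in wild-type panicles and 4.24 in labelled overexpressor panicles, so Hd3a was dim in panicles of both genotypes while OsMADS14, OsMADS15 and OsMADS18 were high. The 6 GF14 genes had leaf changes of -0.39 to 0.38, and none passed in either tissue.

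Of the 7 SEPALLATA-like and AGL6-like genes, OsMADS34 and OsMADS1 fell in leaves and OsMADS7 and OsMADS8 fell in panicles, while none rose in either tissue. Of 6 measured panicle meristem genes none passed in leaves, where OSH1 changed by -0.23 and LAX1 by 0.08. In panicles 3 of the 6 rose, OsSPL14 by 1.09, FZP by 0.99 and LOG by 0.81. OSH1, LAX1, RFL and FZP are in the apex marker list as well. Over all probe sets 1.84% fell and 1.05% rose in panicles, against 3.05% and 1.37% in leaves. Of 8 floral organ genes 7 fell in panicles and none passed in leaves. Their summed linear level went from 13580 in wild-type panicles to 6227 in labelled overexpressor panicles, and its part in the panicle values of the 4 MADS genes was not tested. The 6 green leaf markers also had a lower summed level in labelled overexpressor panicles, 1022 against 2419 in wild type. In leaves the marker sums were 65.2 in wild type and 71.0 in the overexpressor for the apex, and 196 and 181 for floral organs. All 5 apex markers lay below the array median in wild-type leaves, so the apex sum is largely near background. Of the 8 floral organ markers, 6 lay below that median. OsMADS16 at 6.28 and OsMADS4 at 5.92 lay above it and made up most of the floral sum in wild-type leaves. The part of these marker sums in the leaf values of the 4 MADS genes was not tested.

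OsMADS14 and OsMADS34 are neighbours in the rice genome: the RefSeq gene table of assembly ASM3414082v1 lists no gene between them. Among the 6 genes on either side of the pair, 5 had a probe set of their own, with leaf changes of -0.21 to 0.37, and none passed by limma (adjusted p = 0.203 to 0.904). OsMADS15 and OsMADS18 are not next to this pair. The comparison of neighbours was added after the leaf values had been seen.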

How the data were processed

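The authors deposited log2 expression values for 57381 probe sets on 8 arrays, which the submitters' processing notes credit to RMA. Its version, and whether both tissues were run together, are not given in the sources used here. Differences near background are damped by this method. Control probe sets (123 AFFX and 64 reporter) were left out, which left 57194, of which 22436 were paired with 1 gene. With limma 3.58.1 (R 4.3.3), 1 mean per group was fitted to all arrays, leaving 4 residual degrees of freedom, with two-sided p-values adjusted by Benjamini-Hochberg over all probe sets per contrast. "Rose", "fell" and "passed" mean adjusted p under 0.05. The contrast of wild-type panicles with wild-type leaves used values quantile normalized over all arrays, while the genotype effects and their difference between tissues used the deposited values. Folds are point estimates, and are said to be possibly larger where the lower group mean lay below its array median. A gene outside the 4 was read at its brightest probe set. The fit was tested on simulated data. The number of arrays limits the precision, with median replicate SDs of 0.07 to 0.12.

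The members and lists (72 entries, 54 measured) were chosen with earlier results of these data known. Named genes were the members, genes of these lists, and the 5 named genes with the highest Pearson r to each member. Other OsMADS genes, the reporters and the chromosomal neighbours were added after values were seen. RefSeq gives the name RCN1 to an ABC transporter. No reading was obtained for any TFL1-like entry of the lists, and the array may still carry probes for such genes. Alternatives were the normalization, a filter on dim probe sets, the arrays of a comparison alone, weights per array, a robust prior with an intensity trend, a replicate term, other probe sets and leaving out each array. Figures used Python 3.11.15, pandas 2.3.3 and matplotlib 3.10.9.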

Additional observations from a re-analysis of the deposited data

Results flagged for a closer look

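The genotype effect differed between tissues, by a test of the difference itself, for 3 of the 4 genes: by 7.51 for OsMADS14, 2.17 for OsMADS18 and 1.31 for OsMADS34 on the log2 scale, each time as a fall in leaves without one that passed in panicles. Of all probe sets, 2.1% passed in this direction. The OsMADS34 difference was near the threshold (limma, adjusted p = 0.0441) and did not pass with a replicate block (limma, adjusted p = 0.0864). Its leaf values lay within the range of the reporter controls of wild-type leaves. Outside the gene measurements, reporter control A was 8.15 and reporter control B 7.81 higher in overexpressor leaves than in wild-type leaves. In panicles the same differences were 0.01 and 0.27. The cause was not tested. Groups of 2 arrays are too small to single out an array.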

How the results depend on the processing

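Of 260 values of the 4 genes under alternatives, 242 kept their direction and their side of the threshold. Several alternatives, such as the filter on dim probe sets and the robust prior, left the estimate unchanged, so its direction could not change. Effects that did not pass and stayed so are counted among the 242. The leaf falls of OsMADS14 and OsMADS18 passed under every alternative run, those of OsMADS14 at its other probe sets included, and no panicle effect of the 4 genes passed under any. OsMADS34 in leaves did not pass with the leaf arrays alone (-1.25, adjusted p = 0.132 by limma) and ran from -1.61 to -0.89 when 1 array was left out. Its difference between tissues (1.31) did not pass with a replicate block (adjusted p = 0.0864 by limma) and ran from 0.96 to 1.67 without 1 array. At its probe set of another cluster OsMADS15 read 0.13 in leaves and -0.038 for the difference between tissues. For wild-type panicle against leaf, OsMADS14 read 1.57 and OsMADS18 1.75 on the deposited scale, and OsMADS14 read -1.17 at the probe set with the suffix a, -0.57 at that with the suffix x, 1.59 at that of another cluster and -0.32 to 0.069 without 1 array. The cause was not tested, apart from the array medians given above.

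The number of probe sets that passed in leaves was 2529, and 325 with the leaf arrays alone, which leave fewer degrees of freedom. In panicles it was 1652, with 692 for the panicle arrays alone, 2807 with array weights and 1097 with the replicate block. Without 1 array the counts ran from 1051 to 3292 in leaves, 420 to 1645 in panicles and 630 to 2670 for the difference, where the full fit gave 2195. Arrays of a tissue with the same replicate number did not deviate together (r of 0.007 in leaves and 0.057 in panicles over probe sets), so they share only a number. The block changed no other call of the 4 genes. Where leaving out an array left 1 in a group, it was assumed to vary like the other groups.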
